A study of Mus musculus with 5 samples.

Results

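Iron handling and heme breakdown were described by the probe sets of 10 genes in ID8 cells, a line of transformed mouse ovarian epithelium that grows as tumours with ascites in the abdomen of mice. The genes were Tfrc and Slc11a2 (iron import), Slc40a1 (export), Fth1 and Ftl1 (storage), Ireb2 and Aco1 (regulation), and Hmox1, Blvra and Blvrb (heme breakdown). A probe set, the group of short probes that an Affymetrix array reads as 1 value, was taken when the platform annotation gave it exactly 1 of these genes. This chose 19 of 22690 probe sets. Of the 19, 3 are array controls for Tfrc, which left 16 of 22626 probe sets to be tested, for 9 of the 10 genes, out of 12393 genes with a tested probe set of their own. Ftl1 had none, because its 3 probe sets are annotated to other genes as well.

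Total RNA of 5 samples was hybridised, 1 sample per array. The FBS group (n = 3, replicates 1, 2 and 3) was parental ID8 cells in DMEM with 10% fetal bovine serum. The ascites group (n = 2, replicates 2 and 3) was ID8 cells in DMEM with 10% ascites fluid from mice bearing ID8 tumours, for 7 days by the series design. Every array thus carries the same cell line, and the labels give no genetic change. They state neither whether the ascites was pooled over mice, nor how long the FBS cultures ran, nor whether replicates were separate cultures. The p values thus reflect spread among arrays alone, and that spread may be technical.

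Cells take up transferrin-bound iron through the transferrin receptor, move it out of endosomes through the metal transporter encoded by Slc11a2, keep it in ferritin and export it through ferroportin. The iron regulatory proteins, encoded by Aco1 and Ireb2, bind hairpins in the transcripts of several of these genes. When iron is scarce they stabilise the Tfrc transcript and block ferritin translation, so much of ferritin control does not appear in transcript levels. Heme oxygenase opens heme into biliverdin, carbon monoxide and iron, and biliverdin reductase A, the product of Blvra, turns this biliverdin into bilirubin. The product of Blvrb acts mainly on flavins and on other biliverdin isomers. Ascites of ovarian tumours can hold blood, and with it iron and heme.

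Values are deposited log2 signals, and changes are ascites minus FBS with the standard error (SE) and, where given, the 95% confidence interval of limma's fit. A probe set rose or fell where limma's p, adjusted by the Benjamini-Hochberg method over all 22626 probe sets, was below 0.05. FBS replicates 1 and 2 were nearly alike (SD of 0.13 over probe sets for their difference, none at least 2-fold apart). FBS replicate 3 stood away from them (SDs of 0.411 and 0.406), and for the ascites pair this SD was 0.236. Keratins 8, 18 and 19, Wt1 and Msln, markers of this cell type, read between 10.83 and 13.53 on all arrays, whereas Epcam, Cdh1 and Pax8 read at most 6.05. Krt7 read 8.00, 8.08 and 5.66 in FBS and 5.37 and 5.12 in ascites, so FBS replicate 3 lay near the ascites arrays. Its change of -2.00 did not pass (limma adjusted p = 0.276), and without FBS replicate 3 it was -2.79 (adjusted p = 0.0104). Here and below, the fit without FBS replicate 3 takes its FBS spread from the near-alike pair alone, and 15.7% of all probe sets were called in it. Of the 9 identity markers, 2 fell in ascites (Krt18 and Krt19) and 0 rose, where 4.78% of all genes were called by their brightest probe sets. Wt1 changed by -1.43 (limma adjusted p = 0.105) and Krt8 by -0.94 (adjusted p = 0.0883) without passing. Both had the ascites arrays below every FBS array. Of the 9, 7 read lower in ascites and 2 higher, with a median change of -0.88, beside 0.00 over all genes.

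Blvrb, which encodes biliverdin reductase B, an enzyme that reduces flavins and some biliverdin isomers, was 3.52-fold higher in ascites and was the only one of the 16 probe sets to pass the threshold. Hmox1, the inducible heme oxygenase, and the brighter probe set of the ferroportin gene Slc40a1 read higher in ascites without passing it, and Blvra, which encodes biliverdin reductase A, read lower without passing it. The ferritin heavy chain, the transferrin receptor and both regulatory protein genes did not differ detectably. Over all probe sets 4.34% were called, 2.38% as risen and 1.96% as fallen, so 1 call among 16 is little more than this background. The median change of the 16 was 0.03, beside 0.01 over all 22626, with 8 higher and 8 lower in ascites, 1 of the latter by a change that rounds to 0.00.

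**Figure D1:**
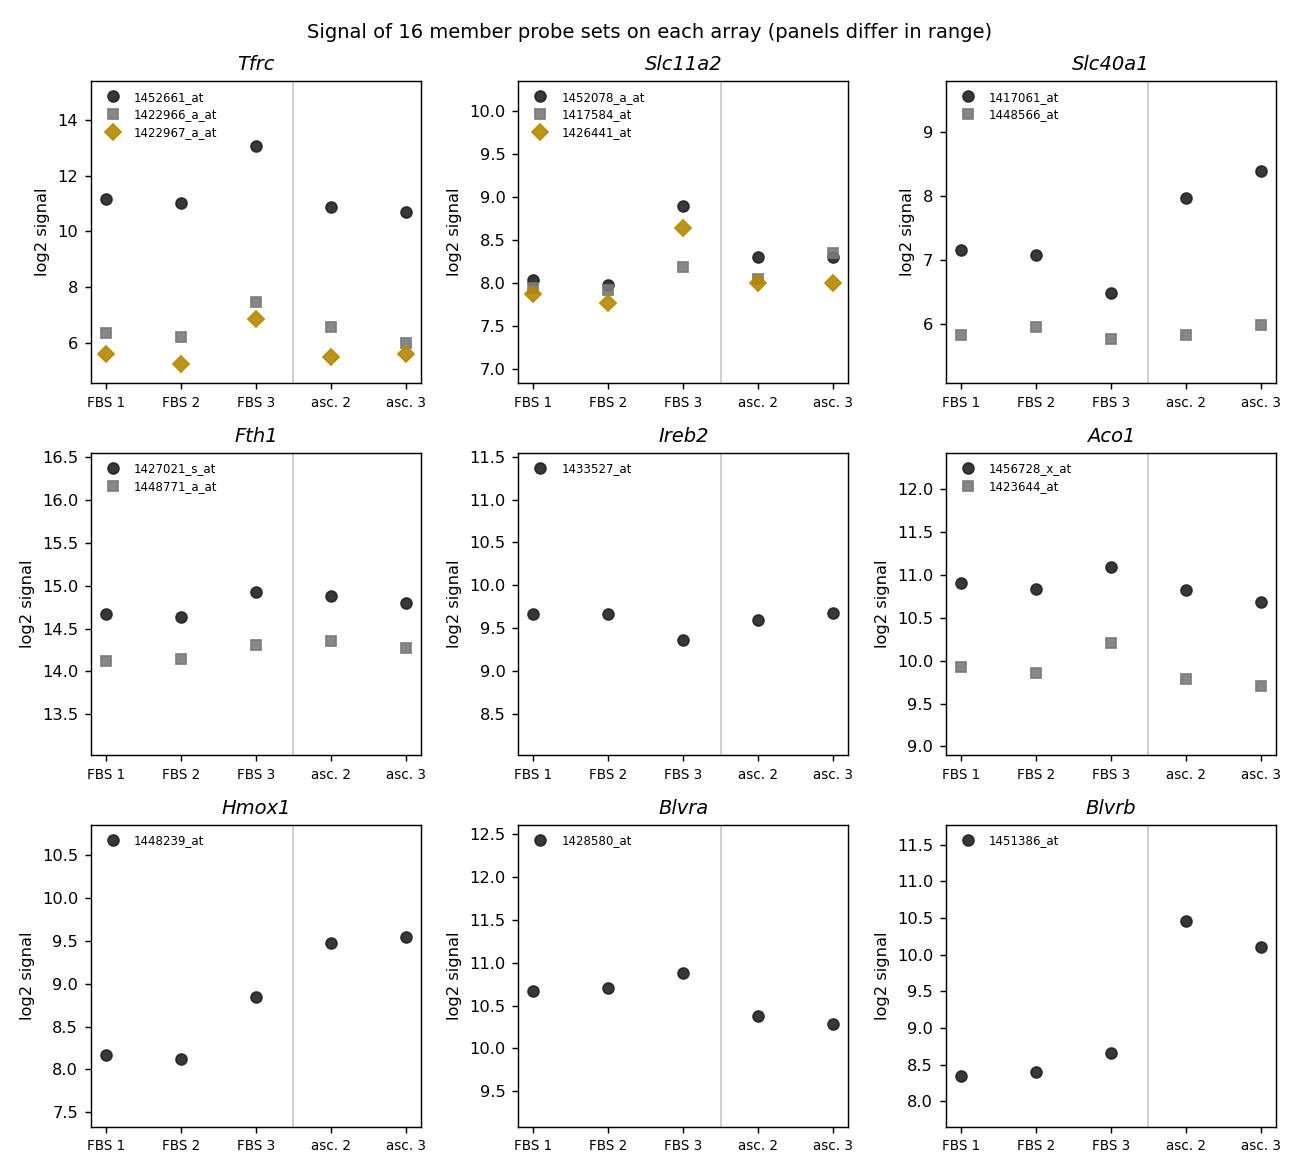
Log2 signal (vertical axis, a range of its own in each panel) of the 16 tested probe sets on the 5 arrays (horizontal axis), 1 panel per gene and 1 symbol per probe set, with 1 point per array and no averaging. Blvrb reads 8.35 to 8.66 on the FBS arrays and 10.11 to 10.46 on the ascites arrays, and Tfrc is highest on FBS replicate 3 in each of its probe sets.

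Blvrb read 8.35, 8.40 and 8.66 on FBS replicates 1, 2 and 3, and 10.46 and 10.11 on ascites replicates 2 and 3. Both ascites arrays lay far above every FBS array, and the lowest ascites value exceeded the highest FBS value by more than the whole spread within either group. The mean went from 8.47 ± 0.17 (SD, n = 3) to 10.29 ± 0.25 (SD, n = 2), a log2 change of 1.82 (SE 0.16, 95% interval 1.39 to 2.24, or 2.63-fold to 4.72-fold, limma adjusted p = 0.0225). The size of the change held at 1.64 to 1.99 when each array was left out in turn, but the call did not. With FBS replicate 3 left out the adjusted p was 0.0175. It was 0.151 and 0.161 on leaving out FBS replicate 1 or 2, and 0.102 and 0.131 on leaving out ascites replicate 2 or 3. In those other four fits 0 of the 22626 probe sets passed, with 3474 to 4852 at an unadjusted limma p below 0.05.

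Blvra read 10.67, 10.70 and 10.88 in FBS, and 10.38 and 10.29 in ascites. Its ascites arrays were the lowest, and the groups did not overlap, but the distance was small: 10.75 ± 0.11 (SD, n = 3) against 10.34 ± 0.06 (SD, n = 2). The log2 change was -0.41 (SE 0.09, 95% interval -0.65 to -0.18, limma adjusted p = 0.0843). Leaving out FBS replicate 3 gave -0.35 with an adjusted p of 0.0403.

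The reductase genes have unlike stretches in front of their transcription starts. The 250 bases before the start are shown because Blvrb carries the only call and Blvra, the other biliverdin reductase gene, read in the opposite direction. They are from RefSeq (GRCm38.p6, plus strand in both), at chr7:27447728-27447977 for Blvrb, the more upstream of 2 listed starts, and at chr2:127070407-127070656 for Blvra. Capitals mark matches, on either strand, to the antioxidant response element TGACNNNGC, the GC box GGGCGG, the CCAAT box CCAAT, the TATA box TATAAA, the cAMP response element TGACGTCA and the E-box CACGTG.
Blvrb: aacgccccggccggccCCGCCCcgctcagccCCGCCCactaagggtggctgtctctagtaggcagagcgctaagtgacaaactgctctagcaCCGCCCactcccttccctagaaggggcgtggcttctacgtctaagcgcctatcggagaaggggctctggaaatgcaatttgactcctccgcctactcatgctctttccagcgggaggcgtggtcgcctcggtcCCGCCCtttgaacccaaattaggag
Blvra: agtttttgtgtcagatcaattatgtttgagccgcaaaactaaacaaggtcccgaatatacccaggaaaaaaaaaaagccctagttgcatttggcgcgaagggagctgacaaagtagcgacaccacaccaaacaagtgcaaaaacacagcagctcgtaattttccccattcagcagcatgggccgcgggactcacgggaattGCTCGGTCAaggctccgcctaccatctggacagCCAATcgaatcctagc
No 2 matches overlap in these windows.

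The Blvrb window holds 4 GC boxes and no other match, and that of its downstream start, a separate window, holds none. The Blvra window holds 1 match to the antioxidant response element, starting 49 bases upstream of the transcription start, and 1 CCAAT box. Among 32851 such RefSeq windows, 10.2% hold the antioxidant response element, 32.7% the GC box, 33.8% the CCAAT box, 12.4% the TATA box, 1.55% the cAMP response element and 6.02% the E-box. Windows were found for 7 of the 10 genes. Hmox1, Slc40a1 and Slc11a2 had no entry in the table.

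Hmox1 read 8.17, 8.12 and 8.84 in FBS, and 9.47 and 9.54 in ascites. FBS replicate 3 lay between the other FBS arrays and the ascites arrays, and the groups did not overlap. The mean went from 8.38 to 9.50, a log2 change of 1.13 (SE 0.25, 95% interval 0.44 to 1.82, or 1.36-fold to 3.52-fold, limma adjusted p = 0.0944). Without FBS replicate 3 it was 1.36, or 2.57-fold (SE 0.05, limma adjusted p = 0.0104), and without each of the other arrays the adjusted p did not pass.

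**Figure D2:**
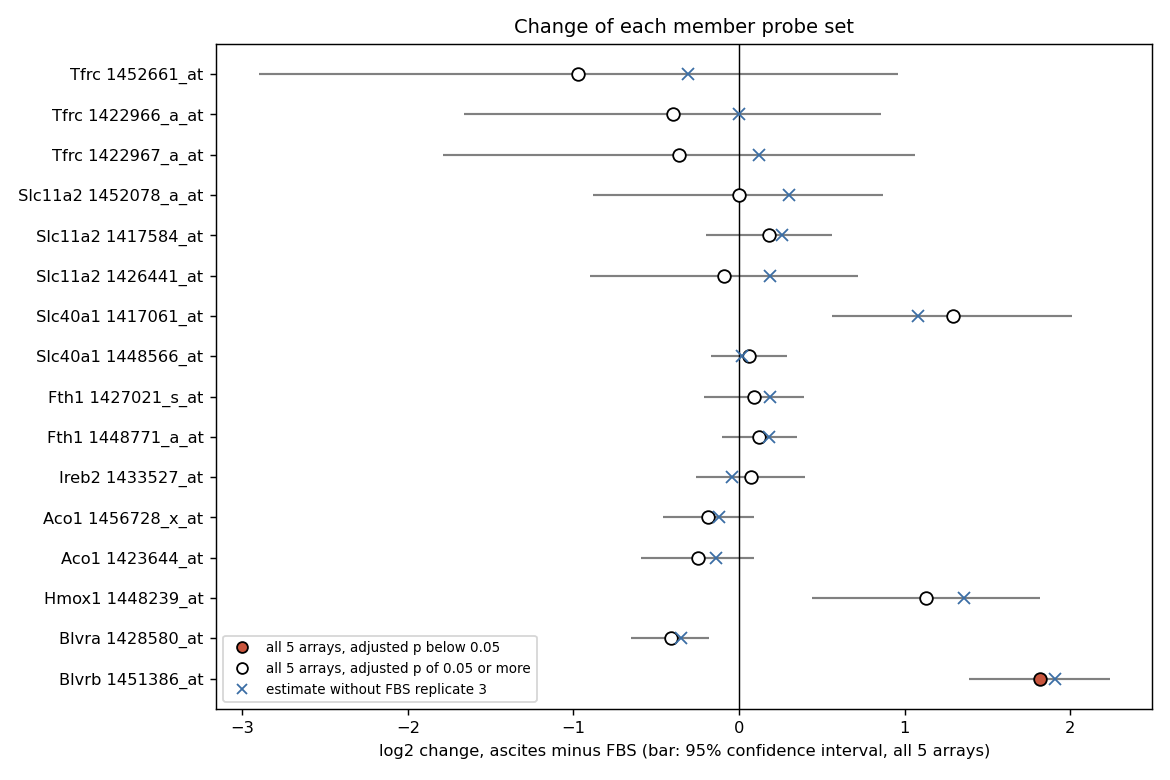
Log2 change, ascites minus FBS (horizontal axis), of each of the 16 probe sets (rows), as circles with 95% confidence intervals from all 5 arrays, filled where limma's adjusted p is below 0.05, and as crosses for the estimate without FBS replicate 3. Only Blvrb is filled, and the widest intervals are those of Tfrc.

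Slc40a1, the only known cellular iron exporter, had 2 probe sets that differed. The brighter one, 1417061_at, read 7.15, 7.08 and 6.48 in FBS, and 7.98 and 8.40 in ascites. Here FBS replicate 3 was the lowest of the 5 arrays, and both ascites arrays lay above all FBS arrays. The log2 change was 1.29 (SE 0.27, 95% interval 0.56 to 2.01, or 1.48-fold to 4.02-fold, limma adjusted p = 0.0818), and 1.08 without FBS replicate 3 (adjusted p = 0.0487). The other probe set, 1448566_at, read between 5.77 and 5.98 on all arrays, with a change of 0.06 (95% interval -0.17 to 0.29, and 0.02 without FBS replicate 3). The dimmest 25% of probe sets had means below 5.14.

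Macrophages, which are rich in heme oxygenase and ferroportin and common in ascites, and red blood cells were checked by marker lists. Of 10 macrophage markers 0 rose and 0 fell, and their mean signal was 4.99 to 5.06 on the FBS arrays and 5.07 to 5.15 on the ascites arrays. The pan-leukocyte gene Ptprc read 3.34 to 3.51 on all arrays, and 5 of the 10 lay in the dimmest 25%. The brightest, Cd14, read 7.63 and 7.15 in ascites against 6.60, 6.70 and 7.74 in FBS. Of 6 erythroid markers 0 rose and 0 fell, with means of 5.25 to 5.37 in FBS and 5.24 to 5.25 in ascites. Array signals have no true zero, so absence of these cells cannot be read from them. The falls of Krt18 and Krt19, and the lower readings of Krt8 and Wt1, went with the changes above. The part of these falls and lower readings in those changes was not tested.

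The ferritin heavy chain, the subunit of ferritin that oxidises iron on entry, was among the brightest transcripts. Its Fth1 probe set 1427021_s_at read 14.67, 14.64 and 14.93 in FBS, and 14.88 and 14.80 in ascites. Probe set 1448771_a_at read 14.12, 14.14 and 14.31 in FBS, and 14.36 and 14.27 in ascites. In both, FBS replicate 3 lay level with the ascites arrays, and the groups overlapped. The changes were 0.09 (95% interval 0.866-fold to 1.31-fold, limma adjusted p = 0.67) and 0.12 (0.933-fold to 1.27-fold, adjusted p = 0.454). Both probe sets read close to the highest signals of the arrays (15.31 to 15.38), and whether the signal still follows the transcript there was not tested. Without FBS replicate 3 the changes were 0.19 and 0.18 and did not pass either (adjusted p = 0.104 and 0.112).

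The iron regulatory protein genes changed little. Ireb2 read 9.67, 9.67 and 9.36 in FBS, and 9.59 and 9.68 in ascites, a change of 0.07 (95% interval -0.26 to 0.40, limma adjusted p = 0.783) that was -0.04 without FBS replicate 3, the lowest array. Aco1, whose product is a cytosolic aconitase when it holds an iron-sulfur cluster, read 10.91, 10.84 and 11.09 in FBS and 10.83 and 10.69 in ascites on probe set 1456728_x_at. On probe set 1423644_at it read 9.93, 9.86 and 10.21 in FBS and 9.79 and 9.71 in ascites. Ascites arrays were the lowest on both, by changes of -0.19 (SE 0.10) and -0.25 (SE 0.13), and neither passed (limma adjusted p = 0.38 and 0.346), nor without FBS replicate 3 (-0.12 and -0.14). In all, 7 of the 16 probe sets had groups that did not overlap, 3 with ascites above and 4 below, where 36.5% of all probe sets did not overlap (19.3% above and 17.2% below).

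The iron import genes differed more among the FBS arrays than between the media. Tfrc, the transferrin receptor, read 11.16, 11.03 and 13.07 in FBS and 10.89 and 10.68 in ascites on its brightest probe set, 1452661_at. FBS replicate 3 stood 3.93-fold above the mean of the other FBS arrays, and only 9 of 22626 probe sets, this one among them, stood at least as far above. The other probe sets read 6.37, 6.21 and 7.48 against 6.57 and 6.01 (1422966_a_at), and 5.60, 5.27 and 6.87 against 5.50 and 5.60 (1422967_a_at). Again FBS replicate 3 was the highest array, by 2.28-fold and 2.70-fold over the other FBS arrays. So 3 of the 16 were at least 2-fold higher on that array, all of Tfrc, where 1.01% of all probe sets were. The 3 dim array controls for Tfrc, which were not tested, also read highest there, at 5.42, 4.67 and 5.08. This sets 1 array against 2 and has no test.

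Between the media, the change of the brightest Tfrc probe set was -0.97 (SE 0.71, 95% interval -2.90 to 0.96, limma adjusted p = 0.49). Without FBS replicate 3 it was -0.31 (SE 0.10, adjusted p = 0.168). The other Tfrc probe sets changed by -0.40 and -0.36 with all arrays, and by 0.00 and 0.12 without FBS replicate 3, so the direction of the last turned. The intervals are wide enough to hold both a loss and a gain of the receptor transcript. The 250 bases before the more upstream of the 2 listed Tfrc starts are shown because, of the member genes, Tfrc varied most among the FBS arrays. They lie at chr16:32608646-32608895 (RefSeq, GRCm38.p6, plus strand) and hold 1 CCAAT box, in capitals, and no other of the motifs above. The window of the downstream start, not shown, holds 1 GC box, starting 35 bases upstream of that start.
Tfrc: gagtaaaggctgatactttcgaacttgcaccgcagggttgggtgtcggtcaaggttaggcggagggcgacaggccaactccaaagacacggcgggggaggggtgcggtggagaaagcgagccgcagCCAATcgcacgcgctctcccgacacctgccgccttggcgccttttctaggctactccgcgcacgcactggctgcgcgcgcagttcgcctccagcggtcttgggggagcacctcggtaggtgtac

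Slc11a2, which encodes the divalent metal transporter DMT1, followed the same array in part. Probe set 1452078_a_at read 8.03, 7.98 and 8.90 in FBS and 8.30 on both ascites arrays, and 1426441_at read 7.87, 7.76 and 8.64 in FBS and 8.00 on both. FBS replicate 3 was the highest array on both, 1.86-fold and 1.77-fold above the other FBS arrays, and the ascites arrays lay in between. Probe set 1417584_at read 7.94, 7.92 and 8.19 in FBS and 8.04 and 8.35 in ascites. Changes between the media were 0.00, -0.09 and 0.18 in the order given (limma adjusted p = 1, 0.89 and 0.517). Without FBS replicate 3 they were 0.30, 0.19 and 0.26, and the first passed (adjusted p = 0.0348).

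**Figure D3:**
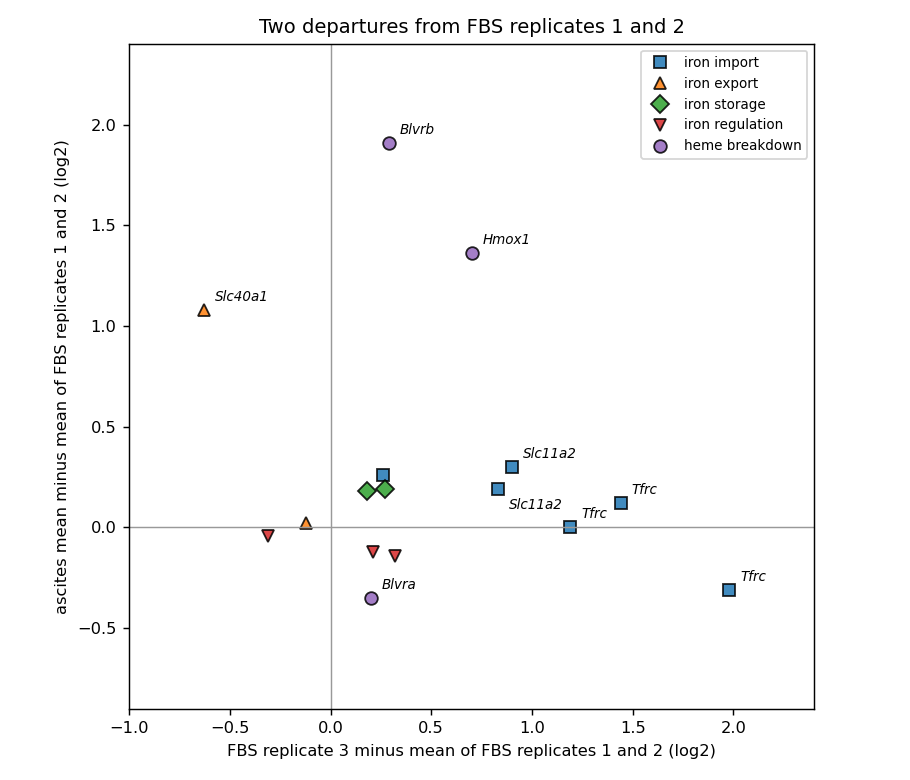
For each of the 16 probe sets, the log2 distance of FBS replicate 3 (horizontal axis) and of the ascites mean (vertical axis) from the mean of FBS replicates 1 and 2, with symbols for the role of the gene. The 3 Tfrc probe sets lie farthest to the right, at 1.19 to 1.98, and Blvrb, Hmox1 and Slc40a1 1417061_at lie highest, at 1.91, 1.36 and 1.08. Slc11a2 1417584_at (0.26 across) and Slc40a1 1448566_at (0.02 up) lie apart from the other probe sets of their genes.

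FBS replicate 3 was above both other FBS arrays in 13 of the 16 probe sets and was the highest of the 5 arrays in 9, 5 of them of Tfrc and Slc11a2. The 16 belong to 9 genes, and the share of all probe sets in either order was not counted. The median distance of FBS replicate 3 from the other FBS arrays was 0.28 over the 16, beside 0.01 over all probe sets. Leaving it out raised the calls among the 16 from 1 to 5, with Blvrb, Hmox1, 1 probe set of Slc40a1 and 1 of Slc11a2 risen and Blvra fallen. Over all probe sets the share called then rose to 15.7%. The FBS spread of that fit comes from the near-alike pair alone.

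**Figure D4:**
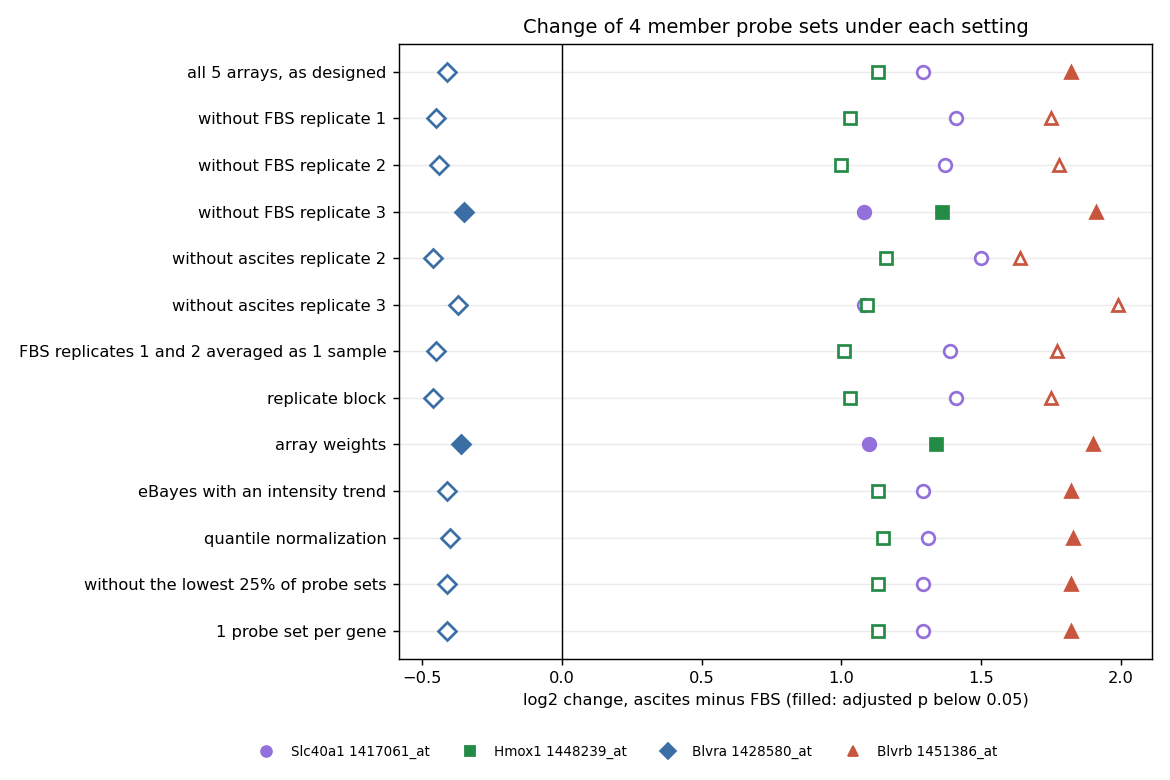
Log2 change, ascites minus FBS (horizontal axis), of 4 probe sets under each setting (rows), filled where limma's adjusted p is below 0.05. The changes keep their sides of 0 under all 13 settings, while the calls of Hmox1, Slc40a1 and Blvra appear only without FBS replicate 3 and with array weights.

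Other genes of iron and heme handling were counted in lists, each gene represented by its brightest probe set. Of 64 measured genes, 4 rose and 1 fell, where 4.78% of all genes so represented were called, and their median change was -0.01, beside 0.00 over all genes. The calls were spread over iron-sulfur cluster assembly (3 risen), heme synthesis (1 risen) and the list of the transferrin cycle and other iron import (1 fallen). The fallen gene was Cp, whose product acts on exported iron. Each of these calls was lost when any one array other than FBS replicate 3 was left out. In the absence of FBS replicate 3 there were 11 rises and 11 falls.

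Of 15 genes of mitochondrial iron and iron-sulfur clusters, 3 rose and 0 fell. Hspa9, the mitochondrial chaperone that helps hand over clusters, read 11.62, 11.52 and 11.80 in FBS and 12.97 and 12.77 in ascites, 2.33-fold higher (log2 change 1.22, SE 0.12, limma adjusted p = 0.0246). Of its 4 probe sets 2 rose, and the lowest change was 0.04. Nfu1, a carrier of clusters to their target enzymes, rose 1.78-fold (SE 0.09, adjusted p = 0.0283) with both of its probe sets. Iscu, the scaffold on which clusters are built, rose 1.46-fold (SE 0.06, adjusted p = 0.0283). All 3 had ascites arrays above every FBS array. Slc25a37, the mitochondrial iron importer mitoferrin 1, named after its values were seen, read 6.76, 6.54 and 7.74 in FBS and 8.52 on both ascites arrays without passing (log2 change 1.51, SE 0.40, adjusted p = 0.124).

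Of 10 heme synthesis genes 1 rose and 0 fell, while 2 read higher in ascites and 8 lower, with a median change of -0.19. Cpox, coproporphyrinogen oxidase, read 8.83, 8.67 and 8.71 in FBS and 9.31 and 9.43 in ascites, 1.55-fold higher (log2 change 0.63, SE 0.08, limma adjusted p = 0.035). Its other probe set changed by 0.81 without passing. Alad, which joins aminolevulinate into porphobilinogen and was named after its values were seen, read 11.84, 11.83 and 11.09 in FBS and 10.70 and 10.44 in ascites. Its change of -1.02 (SE 0.28) did not pass (adjusted p = 0.135), and FBS replicate 3 lay on the ascites side of the other FBS arrays.

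Of 11 genes of the transferrin cycle and other iron import, 0 rose and 1 fell. Cp, the ferroxidase ceruloplasmin that loads exported iron onto transferrin, read 12.34, 12.40 and 12.39 in FBS and 11.04 and 11.28 in ascites. The FBS arrays were nearly level and the ascites arrays well below them, a 2.32-fold fall (log2 change -1.22, SE 0.09, limma adjusted p = 0.0199). Of its 7 probe sets 4 fell, and the others changed by -0.78, -0.36 and 0.16. Lcn2, lipocalin 2, which binds iron-carrying siderophores, read 5.09, 5.05 and 5.25 in FBS and 6.88 and 9.28 in ascites. Its ascites arrays lay far apart, so the change of 2.95 (SE 0.75) did not pass (adjusted p = 0.117). Steap1, of the metalloreductase family, changed by 1.25 (SE 0.22, adjusted p = 0.0642) on its brightest probe set, and its other probe set rose by 1.59 (adjusted p = 0.0441). Lcn2 and Steap1 were named after their values were seen.

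None of the 8 genes of iron storage, chaperones and sensing passed. Nor did any of 11 genes of heme transport and turnover or of 9 transcription regulators. In these lists 0, 7 and 3 genes had an unadjusted limma p below 0.05, where 3012 of all 12393 genes so represented did. The median changes of the 3 lists were 0.05, -0.29 and -0.02, with 6, 3 and 4 genes higher in ascites and 2, 8 and 5 lower. The smallest p in each belonged to Pcbp2, an iron chaperone that delivers iron to ferritin (-0.22, SE 0.08, adjusted p = 0.223), to Lrp1, the receptor for hemopexin-bound heme (-1.30, SE 0.30, adjusted p = 0.0945), and to Mafk, a small MAF partner of NRF2 and BACH1 (0.65, SE 0.12, adjusted p = 0.0626). Of the factors that act on Hmox1, Nfe2l2 (NRF2) changed by 0.18 and its repressor partner Keap1 by -0.52, and Bach1, the heme-sensing repressor, by -0.09 (0.27 on its other probe set), none past the threshold.

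**Figure D5:**
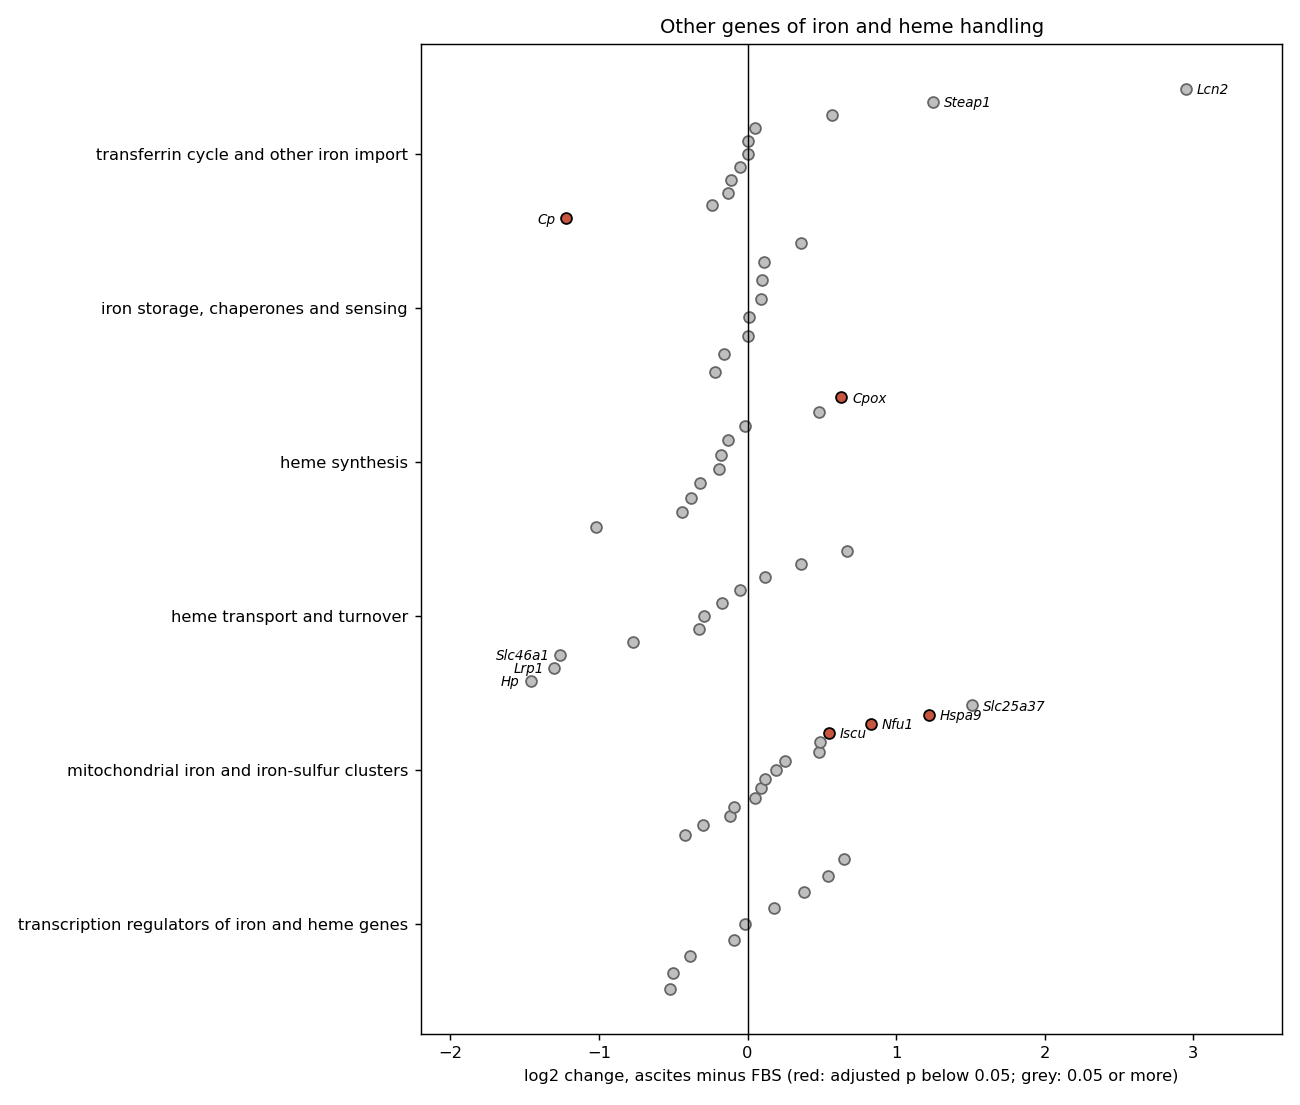
Log2 change, ascites minus FBS (horizontal axis), of 64 other genes in 6 lists (rows), 1 point per gene by its brightest probe set, red where limma's adjusted p is below 0.05. The red points are Cp at -1.22 and Cpox, Iscu, Nfu1 and Hspa9 between 0.55 and 1.22.

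Profiles most like those of the members with the largest changes were sought among the genes' brightest probe sets, by the root mean square difference over the 5 arrays after centring each profile. Nearest to Blvrb were Sat1, a polyamine acetyltransferase (0.0535), Parm1 (0.0979) and the drug efflux pump gene Abcb1b (0.122). Sat1 read 10.74, 10.74 and 11.01 in FBS and 12.69 and 12.42 in ascites, with ascites replicate 2 above replicate 3 as in Blvrb. Nearest to Slc40a1 were the kinase gene Fyn (0.0672), Nupr1, a stress-induced chromatin protein (0.092), and B3galnt2 (0.0952), all lowest on FBS replicate 3. This likeness describes 5 arrays and carries no test.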

How the data were processed

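RNA was extracted with a column kit and biotin-labelled for an Affymetrix mouse array, per the labels' protocols. The deposited values are log2 signals per probe set with 2 decimals, made by the authors with Affymetrix Expression Console, per the submitters' processing notes; the log2 scale is judged from their range. The sources used here give no version, summarisation algorithm or background correction. Medians were 7.40 to 7.47 per array, so no further normalization was applied. Such values do not show total RNA per cell, and fewer cells with a transcript cannot be told apart from less transcript per cell.

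Gene names came from the platform annotation: 20380 tested probe sets had 1 gene, 691 several, and 1555 were not listed. Entrez identifiers of 20351 matched a RefSeq table (GRCm38.p6), with the same symbol in each. All 22626 probe sets that are not array controls were fitted together with limma 3.58.1 in R 4.3.3 (lmFit, eBayes, two-sided, no covariate, 3 residual and 1.31 prior degrees of freedom). An exact permutation test of 3 against 2 arrays cannot go below 0.1 and was not used. In a test on simulated data of this comparison (22626 probe sets), 57% of 100 changes of 1 and 89% of 100 changes of 2 on the log2 scale were recovered, with 9 false calls. The simulated noise was independent between arrays, whereas FBS replicates 1 and 2 of the data were nearly alike. The number of changed probe sets was also set in advance, so these figures may not hold for the data. All 16 probe sets lay above the dimmest 25%.

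Named genes were all members, up to 4 called genes of each other list with the largest change or else the smallest p, and the 3 nearest profiles of the 2 members with the largest change. Nfe2l2, Keap1 and Bach1, the cell type markers, and the genes said to be named after their values were seen lie outside this rule. The members and lists were chosen with earlier results of these data known. Alternatives were leaving out each array, averaging FBS replicates 1 and 2, a replicate block, array weights, an intensity trend, quantile normalization, a filter on dim probe sets and 1 probe set per gene. The number of arrays limits the precision. Figures were drawn with matplotlib 3.10.9.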

Additional observations from a re-analysis of the deposited data

How the results depend on the processing

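The call of Blvrb, and those of Cp, Cpox, Hspa9, Nfu1 and Iscu, needed FBS replicates 1 and 2 and both ascites arrays, while their directions held under all 12 alternatives. Leaving out 1 array at a time gave 0 to 4 risen and 0 to 1 fallen of the 16 probe sets, 0 to 1693 risen and 0 to 1866 fallen of all, and 0 to 11 risen and 0 to 11 fallen of the 64 other iron and heme genes. Each highest count came without FBS replicate 3 and each 0 without another array, where 3474 to 4852 of all probe sets and 1 to 4 of the 16 still had an unadjusted limma p below 0.05. With 1 ascites array left, that array is assumed to vary like the FBS arrays. Averaging FBS replicates 1 and 2 as 1 sample gave 0 calls of either kind in limma among the 16, all probe sets and the other genes (3680 of all at an unadjusted p below 0.05). The replicate block also gave 0 calls (3417 at an unadjusted p below 0.05), with 1 residual degree of freedom. Deviations of samples that share a number had correlations of 0.03 and 0.05. With 2 ascites arrays, whose deviations from their mean mirror each other, these values cannot show whether the number marks a pairing. Array weights gave 3 risen and 1 fallen of the 16, 1891 risen and 1837 fallen of all, and 11 risen and 9 fallen of the other genes. With 1 probe set per gene, where fewer features were tested, 333 of all rose. Directions turned for Tfrc 1422967_a_at (0.12 without FBS replicate 3, 0.09 with array weights, and -0.68 to 0.12 over the arrays left out), Slc11a2 1426441_at (0.19, 0.17, and -0.25 to 0.19), Ireb2 (-0.04, -0.02, and -0.04 to 0.12) and Slc40a1 1448566_at (-0.02 without ascites replicate 3, and -0.02 to 0.13). None of these values passed the threshold. Slc11a2 1452078_a_at, with a change of 0.00 on all arrays, ran from -0.16 to 0.30 over the arrays left out and passed at 0.30 without FBS replicate 3 (adjusted p = 0.0348). Cpox had an adjusted p of 0.0516 with an intensity trend, and Mafk passed with quantile normalization (0.0461) and without the dimmest 25% (0.048). The cause of these differences was not tested.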
